A study of Mus musculus with 2 samples.

Results

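The 46 genes described here encode the proteins that copy chromosomal DNA in S phase and the enzymes that supply its building blocks, the deoxynucleoside triphosphates (dNTPs). They were chosen by name: a row of both gene tables belonged to the set when its gene ID, with the version removed, carried one of 46 listed symbols in GENCODE release M21. All 46 were found among the 43346 gene rows, on 14 chromosomes. No measured value entered the matching of rows, but the list itself was chosen with earlier results of these data known. By role, 9 of them license replication origins, 12 belong to the replicative helicase, 9 to the DNA polymerases and 6 to the sliding clamp and its loader. A further 5 bind single strands or join fragments, and 5 make dNTPs.

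The study has one group, the forebrain of B6NCrl mouse embryos of both sexes at embryonic day 11.5, with no treatment named. Replicate 1 pooled the forebrains of 109 embryos and replicate 2 those of 88, and each library was amplified from only 1 cell-equivalent of total RNA by a SmartSeq protocol, which makes and amplifies full-length cDNA. The source was pooled tissue, although the assay is titled as single-cell sequencing, so each library is treated as 1 bulk sample. Values are TPM (transcript numbers scaled to a fixed total, a level per transcript length) in replicate 1 and then replicate 2, unless stated otherwise. With 2 libraries of one group there is no comparison between conditions and no p-value. A gap between the libraries can come from the pools or from handling of the RNA. Handling here includes the draw and amplification of only 1 cell-equivalent. These sources cannot be told apart.

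Origins are licensed in G1, when the origin recognition complex (ORC), Cdc6 and Cdt1 load the Mcm2-7 ring onto DNA. Geminin blocks a second loading later in the cycle. In S phase, Cdc45 and the GINS complex join the ring to form the active helicase, polymerase alpha-primase lays down primers, and polymerases epsilon and delta extend them on a clamp of PCNA. At this stage of forebrain development the neuroepithelium is rich in dividing progenitors. In bulk tissue, a lower level can mean fewer cells of a type or less RNA per cell, and these cannot be told apart.

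Transcription of many replication genes in cycling cells is known to depend on E2F factors, which bind letters such as those marked below. The stretches shown lie before a RefSeq start of members whose RNA is described further on. Of the 38 members with promoter entries, only the 9 with a matching stretch outside exons are shown, and no clamp gene is among them. The stretches were picked for these letters, so the recurrence of the letters here was set by that choice. Each is 70 bases long, from RefSeq promoters on GRCm38.p6, 5′ to 3′ on the gene's strand. Each lies outside every GENCODE M21 exon, with the E2F letters in capitals. The letters searched on both strands were TTCCCGC and TTGGCGC, and also TTCGCGC and TTGCCGC. The members are Cdc6 (chr11:98907998-98908067, plus strand), Orc4 (chr2:48949353-48949422, minus strand), Mcm5 (chr8:75109330-75109399, plus strand), Mcm6 (chr1:128359742-128359811, minus strand) and Mcm7 (chr5:138171325-138171394, minus strand). The others are Pola1 (chrX:93632262-93632331, minus strand), Rpa2 (chr4:132768262-132768331, plus strand), Rrm1 (chr7:102441613-102441682, plus strand) and Rrm2 (chr12:24708004-24708073, plus strand). Those of Cdc6, Orc4 and Mcm7 precede an alternative start and lie in introns, downstream of the 5′ end that GENCODE M21 gives the gene, and the other stretches lie upstream of that end.
Cdc6: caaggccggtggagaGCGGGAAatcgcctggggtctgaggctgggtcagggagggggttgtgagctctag
Orc4: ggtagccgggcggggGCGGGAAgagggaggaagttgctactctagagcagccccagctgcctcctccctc
Mcm5: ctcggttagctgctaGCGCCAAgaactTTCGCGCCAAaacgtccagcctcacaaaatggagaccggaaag
Mcm6: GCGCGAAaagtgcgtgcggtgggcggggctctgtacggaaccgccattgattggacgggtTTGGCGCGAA
Mcm7: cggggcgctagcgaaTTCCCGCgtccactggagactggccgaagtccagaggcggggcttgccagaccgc
Pola1: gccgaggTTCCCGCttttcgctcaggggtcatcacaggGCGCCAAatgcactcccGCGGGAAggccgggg
Rpa2: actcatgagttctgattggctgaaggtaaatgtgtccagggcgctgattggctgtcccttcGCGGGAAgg
Rrm1: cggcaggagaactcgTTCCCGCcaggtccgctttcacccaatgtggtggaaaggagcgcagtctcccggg
Rrm2: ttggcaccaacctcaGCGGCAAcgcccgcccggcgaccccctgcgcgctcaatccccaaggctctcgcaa

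The promoter table covered 38 of the 46 members, with 46 entries that run from 250 bases before to 50 bases after a start. Some genes have more than one entry. The E2F letters occurred in 26 of the 46 member entries (56.5%), against 9.57% of all 32851 entries and 18.3% of the 7400 entries of protein-coding genes with a mean level of at least 10 TPM here. By gene, 24 of 38 members (63.2%) had a match, against 10.9% of all 27025 genes and 22.0% of the 5703 expressed protein-coding genes. The letters were present in 5 of 8 licensing genes, 5 of 8 helicase genes and 5 of 7 polymerase genes. They were also present in 3 of 5 clamp genes, 4 of 5 strand-binding genes and 2 of 5 dNTP genes. Matches lay in every role, so the letters do not set one role apart. In the 250 bases before the start alone, 17 entries (37.0%) had a match, against 7.89% of all entries and 15.1% of entries of those expressed genes.

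Member promoters were like those of other expressed genes in composition, with a median GC content of 60.7% and a median of 21 CpG dinucleotides. Promoters of expressed protein-coding genes had medians of 61.0% and 21, and all promoters 52.7% and 7. The CCAAT box (CCAAT, either strand) occurred in 25 member entries (54.3%), against 39.3% for expressed genes. By gene it occurred in 23 of 38 members (60.5%), against 44.9% of expressed genes, and in all 8 helicase genes covered. The E2F form GCGCCAA can overlap a CCAAT box by its last letters. The GC box (GGGCGG) occurred in 33 entries (71.7%), against 63.9% for expressed genes. The CHR element (TTTGAA), known from promoters of late cell cycle genes, occurred in 5 (10.9%), against 12.4%. These are descriptions of letters within a fixed window, and a match is not a bound site.

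Replication genes were highly expressed as a set. At a TPM of at least 1, 38 of the 46 (82.6%) were detected in both libraries, against 30.4% of 21474 protein-coding genes and 16.6% of all genes. A level of 10 TPM was reached in both by 37 of 46 (80.4%), against 22.6% of protein-coding genes. Of the 46, 7 were detected in one library alone (16.1% of protein-coding genes were) and Orc1 in neither. The median mean level was 97.6 TPM, and the median member stood at percentile 92.7 among protein-coding genes. The 75th percentile was passed by 42. Their summed level was nearly equal in the libraries, at 5589 and 5642 TPM, or 0.844% and 0.784% of gene counts.

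**Figure D1:**
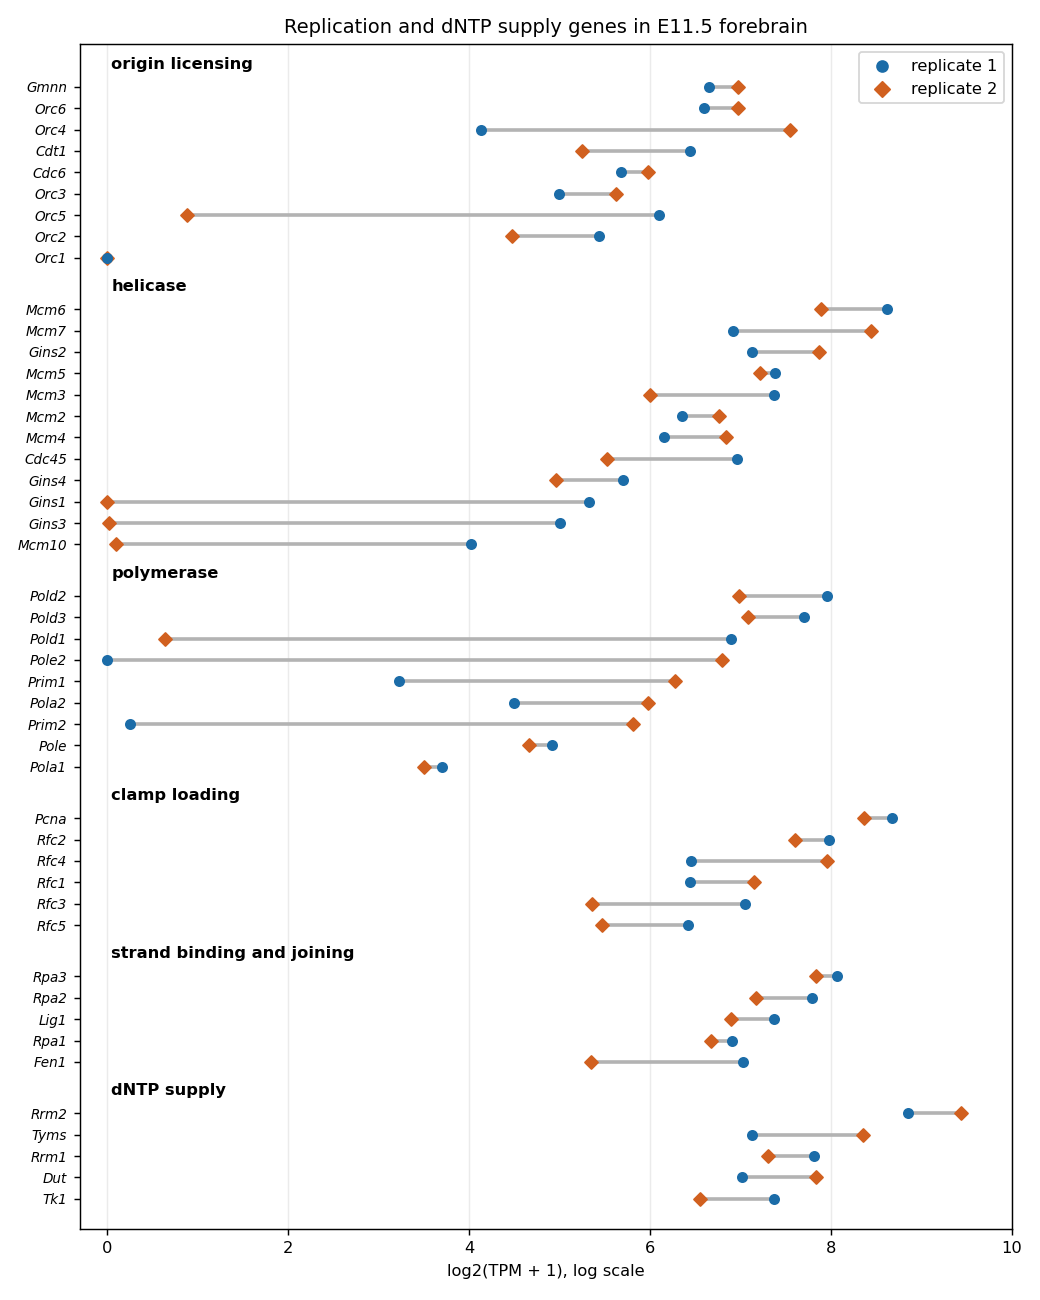
Level of each of the 46 members as log2(TPM + 1), with a point for replicate 1 (circle) and one for replicate 2 (diamond) joined by a line, grouped by role and ordered by mean level. The dNTP, strand-binding and clamp genes lie to the right, with neither library near 0. Orc5, Gins1, Gins3, Mcm10, Pold1, Prim2 and Pole2 have 1 library at or near 0.

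By mean level, the dNTP genes were the highest group and the polymerases the lowest. The median mean level was 190 TPM for dNTP supply, 141 for strand binding and joining and 140 for clamp loading. It was 92.9 for the helicase, 56.2 for licensing and 42.6 for the polymerases. The upper 3 groups had all their members detected in both libraries, while licensing had 7 of 9, the helicase 9 of 12 and the polymerases 6 of 9. The first place of the dNTP genes rested on replicate 2, since their medians were 164 and 228 TPM and those of strand binding and joining 164 and 118. The lowest of these groups, the polymerases, had medians of 21.6 and 62.0 TPM in the separate libraries, so its place below licensing (50.5 and 48.3) was not kept in replicate 2.

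Of the 9 origin licensing genes, 7 were detected in both libraries, and the exceptions were Orc1 and Orc5. Orc1, an ATPase subunit of ORC, had 0 counts in both libraries (chromosome 4, 108579423 to 108614833). A count of 0 still allows up to 0.110 and 0.107 CPM (counts scaled to a fixed total of gene counts) by counting error, and that limit holds for the libraries rather than for the tissue. Orc6 was at 95.8 and 125 TPM, the highest ORC subunit in replicate 1 and below Orc4 in replicate 2. Orc3 was at 30.9 and 48.3 TPM. Orc2 was at 42.2 and 21.2 TPM, from 1287 and 350 counts, so its gap was wider in counts than in TPM.

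Orc4 and Orc5, which belong to the same ATPase-containing complex, differed between the libraries in opposite directions. Orc4 was at 16.6 and 186 TPM, from 336 and 3785 counts, and replicate 2 was 11.2-fold higher. Orc5 was at 67.8 and 0.85 TPM, from 3040 and 8.36 counts. Its depth-scaled counts were 388-fold higher in replicate 1, with a 95% exact interval for counting error of 197 to 900. Intervals of count ratios, here and below, cover counting error only, because without molecular identifiers several reads can stem from 1 molecule.

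The loading factors and their inhibitor were read in both libraries. Cdc6, the ATPase that joins ORC at origins, was at 50.5 and 61.9 TPM, or 56.2 ± 8.12 (SD, n = 2). Gmnn, which encodes geminin, was at 99.7 and 125 TPM. Cdt1, the loading factor that geminin binds, was at 86.2 and 36.9 TPM, a difference of -1.20 on the log2(TPM + 1) scale (replicate 2 minus replicate 1). That places Cdt1 above 2-fold and Cdc6 and Gmnn below it.

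The 6 subunits of the Mcm2-7 ring, which enter the helicase in equal numbers, were all detected in both libraries, with levels that spanned 5.57-fold in replicate 1 and 5.51-fold in replicate 2. The span of the means was 3.42-fold, narrower than in either library because the order of the subunits differed. Mcm6 was the highest on average, at 391 and 236 TPM, and Mcm4 the lowest, at 70.3 and 113 TPM. Mcm5 was at 165 and 148 TPM and Mcm2 at 80.6 and 108 TPM. The order of the subunits was not the same in the libraries: Mcm6 led in replicate 1 and Mcm7 in replicate 2. Mcm3 was the third of 6 in replicate 1 and the lowest in replicate 2.

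Mcm7 and Mcm3 had the widest gaps within the ring. Mcm7 (chromosome 5, 138164583 to 138172422) was at 120 and 346 TPM, 2.88-fold higher in replicate 2. Mcm3 (chromosome 1, 20802968 to 20820312) was at 164 and 62.8 TPM, 2.62-fold higher in replicate 1. In counts the gap of Mcm3 was smaller, at 6506 and 4085. In replicate 1 only 50.9% of its TPM was in the coding transcript, with the rest mainly in retained-intron transcripts of 607 and 716 bases. In replicate 2 the coding transcript held all of it. The coding transcript alone was at 83.7 and 62.8 TPM.

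The factors that turn the ring into an active helicase were read less evenly. Gins2 was the highest GINS subunit in both libraries, at 139 and 233 TPM, and Gins4 was at 50.9 and 30.2 TPM. Gins1 was at 39.0 TPM in replicate 1 (863 counts) and had 0 counts in replicate 2, which makes its scaled counts at least 294-fold higher in replicate 1, with the floor set at 3 counts per library. Gins3 was at 31.2 and 0.02 TPM, from 1616 counts and 1 count, which is 1650-fold by scaled counts (296 to 65226). At a TPM of at least 1, all 4 subunits were therefore detected in replicate 1 and 2 of them, Gins2 and Gins4, in replicate 2.

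Cdc45, which binds the ring together with GINS, was at 124 and 45.2 TPM. Its counts were 5516 and 1883, and the difference was -1.43 on the log2(TPM + 1) scale. Mcm10, a factor needed for helicase activation, was at 15.2 and 0.07 TPM, from 809 and 3 counts, or 275-fold by scaled counts (95% interval 93.9 to 1338). In replicate 1, 90.3% of its TPM was in a retained-intron transcript of 2475 bases and 0.592% in coding transcripts. The Mcm10 value is therefore mostly not a value of the annotated coding RNA.

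The polymerase genes had the lowest median level and the widest gaps between libraries, with a median absolute difference of 1.48 on the log2(TPM + 1) scale, against 0.778 over all members. Pola1, the catalytic subunit of polymerase alpha, was low and even, at 12.0 and 10.4 TPM, or 11.2 ± 1.16 (SD, n = 2). Its partner Pola2 was at 21.6 and 62.0 TPM. Prim1, the catalytic primase subunit, was at 8.38 and 76.8 TPM (303 and 2521 counts). Prim2, the large primase subunit, was at 0.19 and 55.2 TPM (8 and 2355 counts), 288-fold by scaled counts (146 to 668). The 3 partners of Pola1 were thus each higher in replicate 2, while Pola1 itself was slightly higher in replicate 1.

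Of the leading- and lagging-strand enzymes, polymerase delta had a subunit near 0 in replicate 2 and polymerase epsilon one at 0 in replicate 1. Pold1, the catalytic subunit of polymerase delta (chromosome 7, 44532746 to 44548849), was at 118 and 0.56 TPM, from 3041 and 14 counts, 222-fold by scaled counts (132 to 406). Only 25.9% of Pold1's TPM in replicate 1 was in transcripts listed as coding, the one of 3454 bases being at 13.7 TPM. A further 31.7% was in transcripts that release M21 does not list. The partners of Pold1, Pold2 and Pold3, were read in both libraries, at 247 and 126 TPM and at 207 and 135 TPM. Pole2, the second subunit of polymerase epsilon (chromosome 12, 69201773 to 69228195), had 0 counts in replicate 1 and 3909 in replicate 2, where it was at 110 TPM. Its scaled counts were at least 1276-fold higher in replicate 2. Pole, the catalytic subunit of polymerase epsilon, was at 29.2 and 24.3 TPM.

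Pole changed direction with the unit. In TPM the difference was -0.26 on the log2 scale, while in CPM it was 0.62 in the other direction, from 1238 and 1963 counts. Its full-length coding transcript of 7163 bases held 6.08% of the gene's TPM in replicate 1 and 43.6% in replicate 2, and a retained-intron transcript of 1766 bases held 51.3% and 18.9%. More of the reads in replicate 2 were therefore spread over a long transcript, which lowers TPM for the same count.

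The sliding clamp was among the highest members. Pcna, whose ring tethers the polymerases to DNA, was at 407 and 328 TPM, or 367 ± 56.1 (SD, n = 2), and ranked the second of 46. All 5 subunits of replication factor C, the clamp loader, were detected in both libraries. Rfc2 was the highest on average, at 252 and 193 TPM. Rfc5 was the lowest, at 84.3 and 43.5 TPM.

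Among the other loader subunits, Rfc3 and Rfc4 differed at least 2-fold in opposite directions. Rfc3 was at 131 and 40.0 TPM, 3.28-fold higher in replicate 1, and Rfc4 at 86.6 and 246 TPM, 2.84-fold higher in replicate 2. Rfc1, the large subunit, was at 86.1 and 141 TPM, yet had 5288 and 4794 counts, so its direction also depended on the unit. Rfc1's levels rest largely on transcripts that release M21 no longer lists, and 8.50% and 0% of its TPM was in transcripts listed there as coding.

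All 5 strand-binding and joining genes were higher in replicate 1, and 4 of them by less than 2-fold. Replication protein A coats single-stranded DNA as a trimer, and its subunits kept one order in both libraries: Rpa3 at 267 and 228 TPM, Rpa2 at 221 and 143 TPM, and Rpa1 at 119 and 101 TPM. Rpa3 was 2.25-fold above Rpa1 in each library by the TPM of the whole genes. Coding transcripts held 71.2% and 45.4% of Rpa1's TPM and 100% of Rpa3's, so this is not the ratio of their coding RNAs. Lig1, the ligase that seals Okazaki fragments, was at 164 and 118 TPM. Fen1, the nuclease that trims their flaps, was at 129 and 39.7 TPM, 3.25-fold higher in replicate 1 and the exception in this group. The summed level of the 5 genes was 900 and 630 TPM.

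Rrm2, a dNTP gene, was the highest of all 46 members in both libraries. It encodes the small subunit of ribonucleotide reductase, whose supply follows S phase (chromosome 12, 24708241 to 24714146), and was at 462 and 691 TPM, or 576 ± 161 (SD, n = 2). Rrm1, the large subunit, was at 223 and 157 TPM, so Rrm2 was 2.07-fold above it in replicate 1 and 4.41-fold in replicate 2. Dut, which removes dUTP and feeds thymidylate synthesis, was at 129 and 228 TPM. Tk1, the thymidine salvage kinase, was at 164 and 92.7 TPM. The summed level of the 5 genes was 1117 and 1495 TPM, with 3 of them higher in replicate 2.

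Tyms, which encodes thymidylate synthase, stood apart in its transcripts. The gene (chromosome 5, 30058202 to 30073617) was at 139 and 327 TPM, 2.35-fold higher in replicate 2. Its only transcript annotated as protein-coding, of 3163 bases, was at 5.38 and 12.7 TPM, or 3.86% and 3.88% of the gene. A nonsense-mediated-decay transcript of 797 bases held 47.5% and 36.3%. Retained-intron transcripts of 2045 and 816 bases held 25.2% and 41.9%, and 21.1% and 17.9%. Both libraries thus placed most of the gene's level outside the coding transcript, although the split among the others differed. In expected counts the coding transcript had 369 and 864 of the gene's 3688 and 9558.

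**Figure D2:**
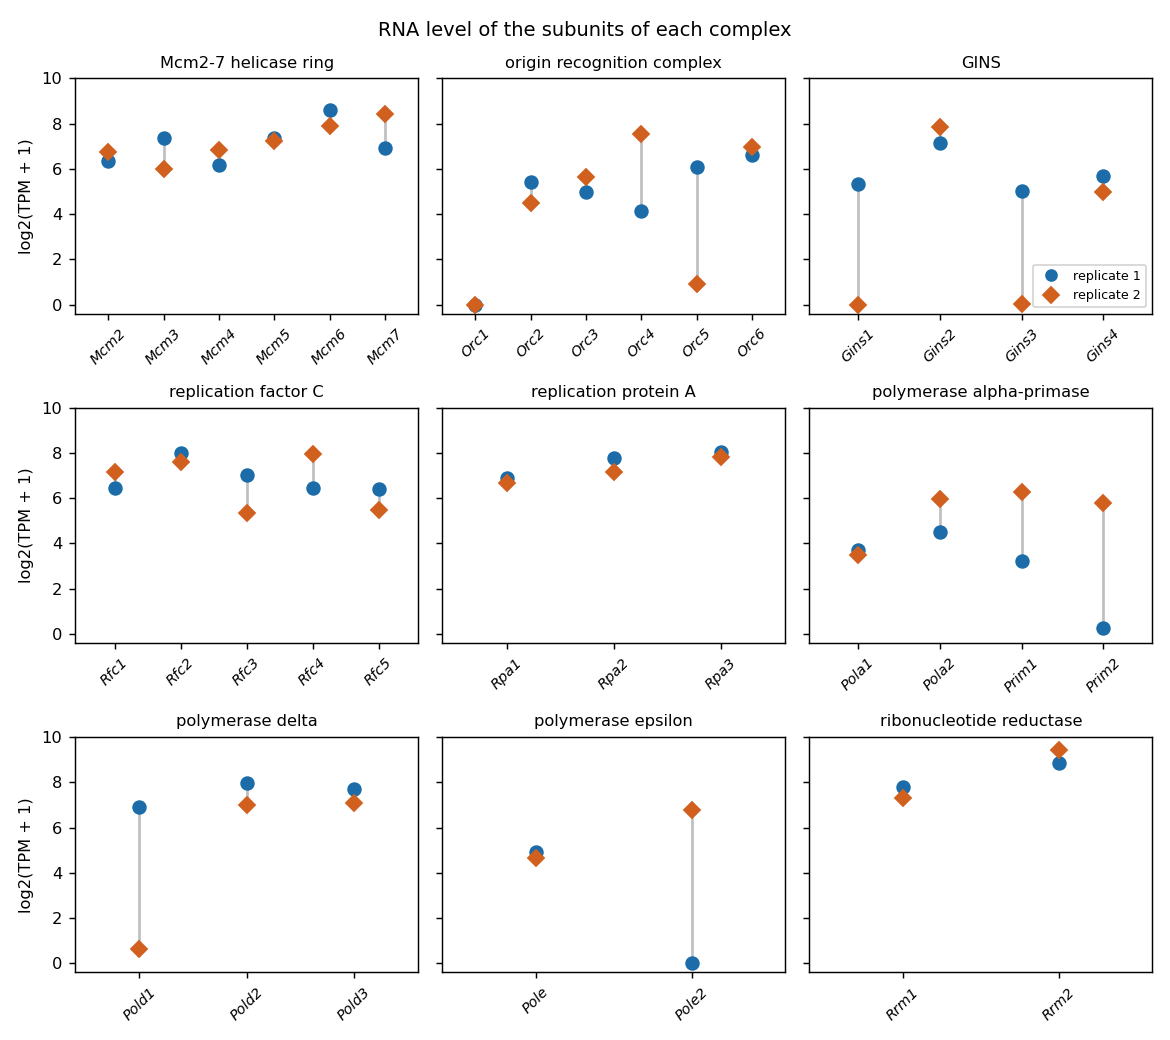
Level of each subunit of 9 complexes as log2(TPM + 1), with a circle for replicate 1 and a diamond for replicate 2. The Mcm2-7 ring, replication factor C, replication protein A and ribonucleotide reductase have no subunit near 0, while ORC, GINS and the 3 polymerases each have 1 or more subunits near 0 in a library.

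Of the 9 complexes, ribonucleotide reductase and replication protein A kept one order of all their subunits in both libraries. In ribonucleotide reductase the means of the subunits were 3.04-fold apart and the largest gap between libraries of any subunit was 1.49-fold. In replication protein A these were 2.25-fold and 1.54-fold. In the Mcm2-7 ring the means spanned 3.42-fold and the largest gap was 2.88-fold, and in replication factor C 3.48-fold and 3.28-fold. Within a library the spans were 5.57-fold and 5.51-fold for the ring, and 2.99-fold and 6.16-fold for replication factor C, and the order of subunits differed between libraries in both complexes. In ORC without Orc1, polymerase alpha-primase, polymerase delta and GINS, the means spanned 3.48-fold, 3.80-fold, 3.14-fold and 11.9-fold. The largest gaps of a subunit with any count in both libraries were 79.7-fold, 290-fold, 211-fold and 1561-fold. For these 4 complexes the gap was the larger, although Gins2 stood above Gins4 in both libraries.

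A smaller share of replication genes than of genes in general differed between the libraries, although most of them stood at levels where gaps are smaller. Among genes with a mean of at least 10 TPM, 17 of 44 members (38.6%) differed at least 2-fold, against 51.3% of 7680 genes and 51.2% of the protein-coding ones. Replicate 2 was higher for 8 (18.2%, against 26.6%) and replicate 1 for 9 (20.5%, against 24.7%). The 8 were Orc4, Mcm7, Pola2, Prim1, Prim2, Pole2, Rfc4 and Tyms. The 9 were Orc5, Cdt1, Mcm3, Cdc45, Gins1, Gins3, Pold1, Rfc3 and Fen1. The median difference over members was -0.24 on the log2(TPM + 1) scale, and 0.02 over all genes. Of the 46, 27 were higher in replicate 1 and 18 in replicate 2.

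**Figure D3:**
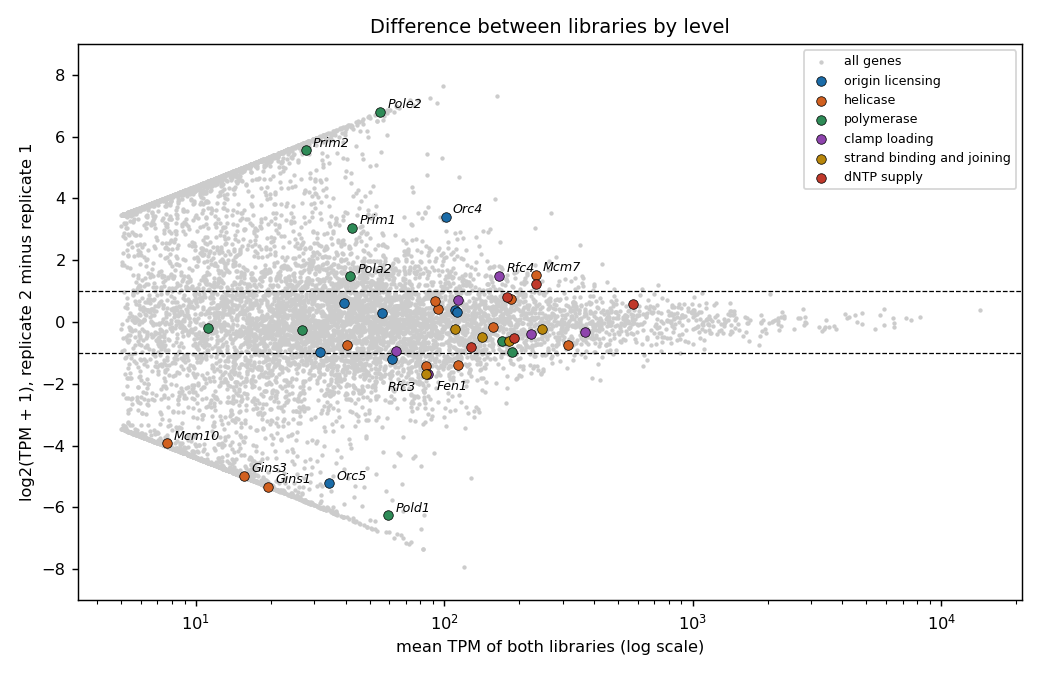
Difference between the libraries (replicate 2 minus replicate 1, log2(TPM + 1)) against mean TPM on a log axis, for all genes with a mean of at least 5 TPM (grey) and for the members, coloured by role. Dashed lines mark 2-fold, and the 2 slanted edges are genes with 1 library at 0. Pole2, Prim2, Orc5, Pold1, Gins1, Gins3 and Mcm10 lie at or near those edges.

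The spread between libraries narrows as the level rises, so the counts were also read within bins of mean TPM. From 10 to 20 TPM, 2 of 3 members differed at least 2-fold, against 75.6% of all genes, and from 20 to 50 TPM, 4 of 8, against 56.1%. From 50 to 100 TPM it was 6 of 10, against 42.9%, and from 100 to 200 TPM 3 of 16, against 28.9%. At 200 TPM or more, 2 of 7 (Mcm7 and Tyms) differed, against 9.96%. The members were below the other genes in 3 of these bins and above in 2, each bin holding few members.

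Of the 44 members, 6 (13.6%) had under 1% of their depth-scaled counts in one library, against 18.1% of all genes at that level. They were Orc5, Gins1, Gins3 and Pold1, read in replicate 1, and Prim2 and Pole2, read in replicate 2. Mcm10, whose mean is under 10 TPM, was a seventh such gene over all 46. From 50 to 100 TPM this held for Pold1 and Pole2, 2 of 10 members, against 3.57% of all genes. It held for 2 of 3 from 10 to 20 TPM, against 43.3%, and for 2 of 8 from 20 to 50 TPM, against 16.4%. In each bin that held such a member the share was thus above that of all genes, though each bin held few members. No member at or above 100 TPM was affected, where the shares over all genes were 0.24% and 0.0%. With 1 library per pool, a subunit near 0 in one library is not a measurement of its absence from the tissue.

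**Figure D4:**
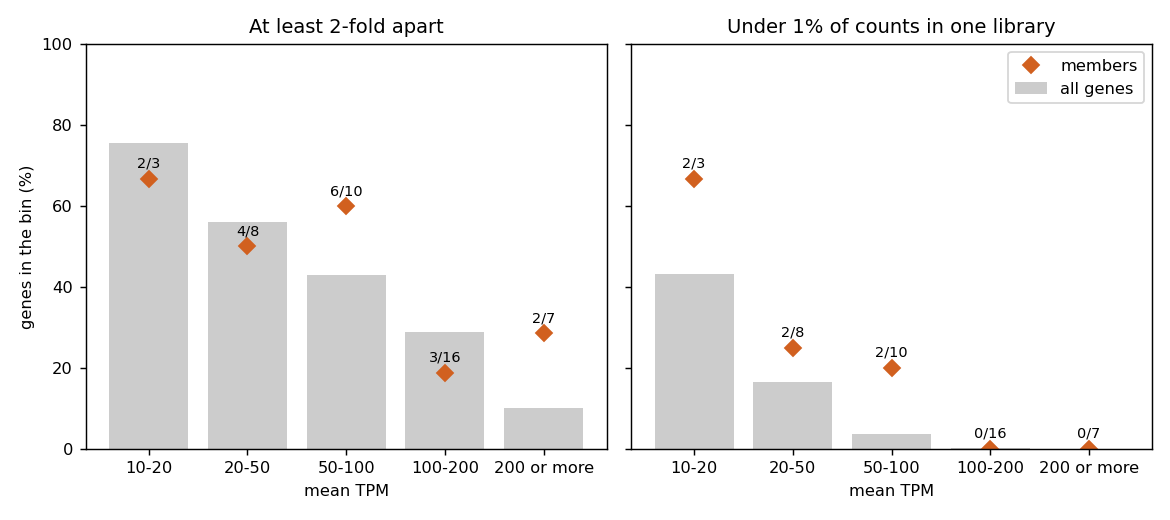
Percent of genes in each bin of mean TPM that differed at least 2-fold between the libraries (left) and that had under 1% of their scaled counts in one library (right). Bars give all genes and diamonds the members, with the number called over the number in the bin beside each diamond; from 50 to 100 TPM the members lie above the bars in both panels.

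The deposited tables give a lower and an upper limit for the TPM of each gene within a library. The limits lie around the posterior mean, and the deposited TPM can fall outside them. Rrm2 in replicate 1 had a TPM of 462, a posterior mean of 452 and limits of 445 and 458. The median width was 7.78% of the TPM in replicate 1 and 7.89% in replicate 2 over the members. Not 1 of the 44 members had intervals that overlapped between the libraries, against 10.1% of all genes with a mean of at least 10 TPM. The libraries' intervals therefore lay apart for each of these 44 members, including those under 2-fold. Each interval comes from 1 library alone and covers no spread between pools or from handling of the RNA. Median counts per member were 3457 and 3334.

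Most replication genes were led by the same transcript in both libraries. Of 38 members with at least 5 TPM in both libraries, 27 (71.1%) had the same leading transcript in both, against 74.9% of all such genes. Among those with 2 or more annotated transcripts it was 20 of 31 (64.5%), against 65.6%. Both shares lie near the background. Coding transcripts held at least 90% of the TPM in both libraries for 22 of the 38 (57.9%), against 62.9% of protein-coding genes.

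Only Tyms and Rfc1 had under 10% in coding transcripts in both libraries, 2 of 38, against 1.92% of protein-coding genes. For Rfc1 this reflects transcripts missing from release M21. Gins2 had 71.3% and 73.2% of its TPM in a retained-intron transcript of 511 bases. In expected counts its coding transcript had 3242 and 2889 of the gene's 4188 and 4679. Most of its counts were thus in the coding transcript, unlike those of Tyms. The Gins2 coding transcript of 3900 bases was at 38.1 and 34.3 TPM, a smaller gap than for the whole gene. Prim1 had 21.1% of its TPM in coding transcripts in replicate 1, where it was low, and 99.7% in replicate 2. Orc4 went from 6.88% to 41.2% in the same sense, and Rpa1 and Pold2 in the opposite one, from 71.2% to 45.4% and from 80.2% to 49.7%.

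**Figure D5:**
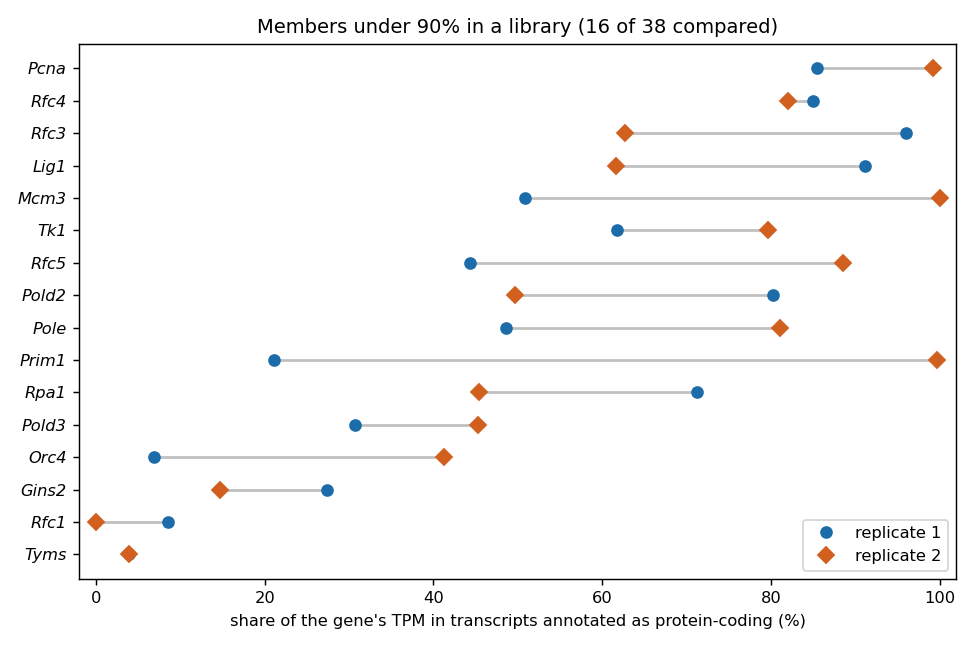
Percent of each gene's TPM in transcripts annotated as protein-coding in GENCODE M21, for the 16 of 38 members with under 90% in at least 1 library (circle for replicate 1, diamond for replicate 2). Tyms lies near 4% in both libraries, and Prim1 and Mcm3 span the widest distances with replicate 2 near 100%.

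The average transcript length behind a gene's TPM (its effective length) differed by at least 0.5 on the log2 scale for 8 of the 44 members (18.2%), against 20.9% of all genes. For Pole and Rfc1 it turned the sign of the difference between TPM and counts. For Orc2 and Pold2 it moved the difference past 2-fold in CPM, to -1.83 and -1.45, and for Mcm3 it brought it to -0.70. The other 41 members, with Orc1 at 0 among them, kept their direction and their side of 2-fold in CPM.

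Some members share exon sequence with a gene on the opposite strand, and the use of strand in counting is not given in the sources used here. Reads of such pairs may not be separable. Gins2 shares 2758 bases with Gse1 (1864 and 1221 counts), and Orc2 shares 1150 with Nif3l1 (1600.8 and 4071 counts). Orc4 shares 446 bases with Acvr2a, at 119 and 1503 counts, and 136 with Mbd5, at 0 and 1192 counts, so both neighbours were higher in replicate 2, as Orc4 was. Rfc5 shares 499 bases with Wsb2, Mcm7 321 with Ap4m1 and 64 with Cops6, Cdc45 209 with Ufd1, Rfc4 194 with Eif4a2, Orc6 171 with Vps35 and Fen1 130 with Tmem258. Fen1 also shares 1909 bases with the antisense gene Gm10143, at 6.27 and 0 counts. On the same strand, Orc5 shares 90 bases with the transcribed pseudogene Gm15421, which had 34.98 and 107.67 counts and so was higher in replicate 2, where Orc5 was near 0. Tk1 shares 83 bases with Afmid on the opposite strand, at 1 and 0 counts. Whether reads of these neighbours entered the members' counts was not tested.

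Genes of the same pathway outside the 46 were read less fully. Of 53, 40 passed 1 TPM in both libraries and 9 in a single one, against 38 and 7 of the 46. Of protein-coding genes, 30.4% and 16.1% did so. Among the 43 with a mean of at least 10 TPM, 14 were at least 2-fold higher in replicate 2 and 10 in replicate 1. For all genes at that level the shares were 26.6% and 24.7%. The median difference of the 53 was -0.13 on the log2(TPM + 1) scale, and -0.23 with genes at 0 counts in one library set to their bound. Their median mean level was 41.0 TPM, against 97.6 for the 46.

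Among regulators of origin firing, Dbf4 was at 47.2 and 101 TPM and its kinase partner Cdc7 at 23.9 and 73.8 TPM, both higher in replicate 2. Recql4 had 0 and 864 counts, and Donson 1228 and 0. The fork protection partners Tipin and Timeless were at 460 and 163 TPM and at 149 and 103 TPM, while Wdhd1 had 21 and 0 counts. The accessory polymerase epsilon subunits Pole4 and Pole3 were at 160 and 49.4 TPM and at 115 and 63.1 TPM, so both were read in replicate 1, in which Pole2 was not. Of the alternative clamp loader genes, Dscc1 was at 12.1 and 37.0 TPM. Chtf8 and Chtf18 were read almost only in replicate 2, with 9 and 1857 counts and with 0 and 2574 counts.

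All 8 genes of primer removal and topology were detected in both libraries, led by the topoisomerase gene Top2a at 309 and 209 TPM and by Rnaseh2c at 106 and 224 TPM, with Rnaseh2a at 187 and 140 TPM. In nucleotide metabolism, Dtymk, the kinase after thymidylate synthase and thymidine kinase, was at 394 and 225 TPM, and Nme1 at 320 and 273 TPM. Rrm2b, the alternative small subunit of ribonucleotide reductase, had 0 counts and 1 count, so the RNA for the small subunit came almost wholly from Rrm2. Cmpk2 had 0 and 655 counts. Of the wider Mcm family and unloading factors, Traip was at 88.2 and 46.9 TPM and Mcm8 at 35.5 and 40.5 TPM, while Mcm9 had 12 and 0 counts and Lrr1 330 and 0. Of the chromatin assembly genes, all 6 were detected in both libraries, and Uhrf1 was at 172 and 121 TPM and Asf1b at 51.9 and 158 TPM.

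Mitosis genes, from a later phase of the cycle, were set beside the replication genes. All 18 were detected in both libraries, with a median mean level of 148 TPM, and their sum was 3334 and 3646 TPM. Ube2c was at 431 and 791 TPM and Cdk1 at 444 and 432 TPM. At least 2-fold differences were found for 3 of the 18 in each direction, and the median difference was 0.13. Of all genes with a mean of at least 10 TPM, 26.6% were higher in replicate 2 by that much and 24.7% in replicate 1.

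The libraries held 28639678 and 28948074 expected counts, with spike-ins at 4.35% and 3.35% of them. Of 8 forebrain regulators, 7 were detected in both, and Six3 had 0 counts in replicate 2; the highest were Nr2f1 at 115 and 149 TPM and Pax6 at 85.6 and 30.1 TPM. All 9 neural progenitor genes were detected, with a summed level of 1417 and 2716 TPM, led by Vim at 741 and 1290 TPM and Fabp7 at 438 and 1010 TPM. Of 9 young neuron genes, 8 were detected, with sums of 956 and 960 TPM, led by Tubb3 and Stmn2. Erythroid genes summed to 27472 and 32876 TPM, nearly all from globins such as Hbb-y and Hba-a2. Gata1 had 2 and 0 counts. Endothelial genes passed 1 TPM in both libraries for 4 of 8 (137.9 and 124 TPM), led by Esam and Egfl7, with Cldn5 at 0 counts in both libraries. Mesenchyme genes did so for 4 of 7 (397 and 335 TPM), led by Lum and Col3a1. Myeloid genes did so for 2 of 6 (115 and 27.3 TPM), with Ptprc at 0 in both. The highest by mean level were Fcer1g and Aif1, but Aif1, at 33.0 and 0.12 TPM, passed 1 TPM in replicate 1 alone. The part of these other cells in the levels of the replication genes was not tested.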

How the data were processed

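RNA of 2 pooled forebrain samples was analysed from tables that the authors deposited for each library, by gene and by transcript. Per the file headers, these hold expected counts (estimated reads, which need not be whole), TPM and FPKM, each also as a posterior mean, and the percent of a gene's TPM in each transcript. The deposited posterior SDs, interval limits and lengths were read as a score without a fixed range. The assembly is mm10 and the annotation M4, per the deposited text. Aligner, quantification program and use of strand: not given in the sources used here.

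Gene symbols, classes and coordinates (1-based) came by gene ID from GENCODE M21, on the same assembly, which matched 42462 of 43346 gene IDs (98.0%). The 96 spike-in rows and 26248 rows named by a bare number were left out of gene counts. TPM was used as deposited, over all rows.

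A gene was detected at a TPM of at least 1. Differences are replicate 2 minus replicate 1 on log2(TPM + 1), with 2-fold at an absolute difference of 1 among genes whose mean TPM was at least 10. This scale understates the change of low genes. Count ratios are of CPM (counts scaled to a fixed total of gene counts), with 95% exact binomial intervals, and a count of 0 was taken to allow 3 counts. Alternatives rescaled counts by edgeR 4.0.16 TMM factors (0.995 and 1.01) and DESeq2 1.42.0 size factors, with counts as deposited for CPM and rounded to whole numbers for both tools. No test across samples was made.

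The members, lists, motifs and rule for named genes were chosen with earlier results of these data known. The rule names all members, the 2 highest genes of each other pathway, mitosis or marker list, the pathway genes at 0 counts in a library, and overlapping genes with counts. Six3, Gata1, Cldn5, Ptprc, Rnaseh2a, Pcna-ps1 and Pcna-ps2 were named after their values were seen. The promoters of expressed genes, the effective lengths, coding shares and interval overlaps were set beside the members after the data were seen.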

Additional observations from a re-analysis of the deposited data

Results flagged for a closer look

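Reads were assigned to a processed pseudogene of Pcna, Pcna-ps2 (chromosome 19, 9283380 to 9284160), which the comparisons of the report do not use. It had 92.7 counts in replicate 1 and 60.3 in replicate 2, at 3.58 and 2.35 TPM, which is above the 3 counts that a count of 0 allows. The other Pcna pseudogene, Pcna-ps1, had 0 counts in both libraries. Pcna itself had 11731 and 10278 counts. How the assignment split reads between the gene and its near-identical copy was not tested.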

How the results depend on the processing

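No paired analysis was possible because there is one group. Of 117 alternatives for the results over lists, complexes and promoters, 98 stayed within the spread between the libraries or within 1.5 times the count, and 19 moved. For levels and fold ranges the spread was the SD of the 2 libraries. A mean of 2 values lies within their SD of either one, so leaving out a library tends to stay within that spread. The tally is therefore not a measure of stability. In FPKM the median level was 75.2 for all members, 43.4 for licensing and 71.8 for the helicase. With TPM rescaled to genes alone it was 105 for all members and 60.7 for licensing. With posterior means the fold range of replication protein A was 2.25 to 3 digits, as before. At a mean of at least 50 TPM, 5 of 33 members were at least 2-fold higher in replicate 2 (14.3% of all genes) and 6 in replicate 1 (15.7%). In the 250 bases before the start, 17 promoters had E2F letters.

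Leaving out each replicate gave 40 to 43 members detected. Median levels then ran from 97.8 to 104 TPM for all members, 48.3 to 50.5 for licensing, 85.2 to 100.3 for the helicase, 21.6 to 62.0 for the polymerases, 109 to 167 for the clamp, 118 to 164 for strand binding and 164 to 228 for dNTP supply. Fold ranges ran from 5.51 to 5.57 for Mcm2-7, 5.79 to 219 for ORC without Orc1, 2.99 to 6.16 for replication factor C, 7.40 to 114 for polymerase alpha-primase, 2.09 to 240 for polymerase delta and 2.07 to 4.41 for ribonucleotide reductase. Only one library gave a value for GINS (4.46, without replicate 2) and polymerase epsilon (4.54, without replicate 1). No difference or transcript comparison is possible with 1 library. The cause of these moves was not tested.

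Over 6 other scalings or pseudocounts, the direction held for all members but Pole and Rfc1, Orc1 having none at 0. Pole and Rfc1 changed sign in CPM, whether or not scaled by TMM or size factors. In those 3 units Mcm3 fell below 2-fold and Orc2 and Pold2 passed it. Depth limits the genes near 0 in a library, where 3 counts are 0.110 and 0.107 CPM.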
